A study of Homo sapiens with 24 samples.

Results

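Cells that took up a plasmid without an insert were set against cells that received no DNA, to see which transcripts answer to transfection itself. HEK293, an established line derived from human embryonic kidney, was used throughout. The comparison takes 12 of the 24 arrays of the series, chosen by their labels alone, in 4 groups of 3 replicates: empty vector cells, which received pCDNA3 alone, untransfected cells, and the same pair with TNFα at 10 ng/ml. Complexes of plasmid and FuGene HD in OPTI-MEM were left on the cells for 24 h, after which the medium was exchanged for one with TNFα or, in the unstimulated groups, with PBS and BSA. The stimulation lasted 4 h by the study's methods and 1 h by the text of the series. The other 12 arrays are cells transfected with the same plasmid carrying wild type SIRT6, a nuclear deacetylase, or its H133W mutant, and these entered the fit that sets the spread behind the p values but are otherwise given only side by side. The study's methods name no DNA among the transfections, while its results call these cells untransfected. The sources used here do not say whether cells without DNA received the transfection reagent, so plasmid DNA and reagent cannot be told apart. The replicates, which the labels call biological, are not described further (separate wells or separate passages), so the p values measure the spread between these samples. The methods describe transfection of only a part of the cells, and in whole-cell RNA a change in each cell and a larger change in some of them cannot be told apart.

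Foreign DNA and the lipid that carries it can be sensed by a cell in several ways. Cytosolic DNA sensors signal through STING to interferon genes, Toll-like receptors read nucleic acids in endosomes, and nutrient, membrane or protein-folding stress acts through kinases that phosphorylate the initiation factor eIF2α. Phosphorylated eIF2α slows translation in general but favours that of the transcription factor ATF4, which drives genes for amino acid import, amino acid synthesis, tRNA charging and glutathione turnover; this programme is known as the integrated stress response. TNFα acts chiefly through NFκB, so the 2 strata, without and with the cytokine, show the plasmid's effect against a resting and an inflammatory background, and they share no array.

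RNA was hybridised to Affymetrix arrays with 54675 probe sets, each a group of short probes for 1 or more transcripts. Values are given as log2 RMA values, on which a difference of 1 is a doubling of signal. A probe set was called when it passed an adjusted p of 0.05 with a fold change over 1.5 (a log2 change of 0.58), and is said to have passed when it met the p threshold alone. The main effect is the mean of the change without and the change with TNFα, 6 arrays against 6. The 12 arrays ran between 1.52 and 13.8 with medians from 5.31 to 5.37. Empty vector replicate 2 had the largest difference between the 3′ and 5′ control probe sets of β-actin, a sign of RNA quality, at 2.05 against 1.33 to 1.65 on the other 11 arrays. This array and untransfected replicate 2 received the low weights of 0.383 and 0.311 in a fit that weights arrays by their scatter, as did untransfected + TNFα replicate 3 at 0.439, and the deviations of the 2 untransfected arrays from their group means correlated at r = 0.46 across probe sets. Outside the comparison, H133W + TNFα replicate 3 had a β-actin difference of 3.03 and a weight of 0.0844. That array too entered the fit that sets the spread behind the p values.

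In the absence of TNFα 50 probe sets were called higher in empty vector cells than in untransfected cells, 0.0914% of those tested, and 1 was called lower (0.00183%). With TNFα 18 were called higher (0.0329%) and 0 lower. The main effect called 372 higher (0.68%) and 2 lower (0.00366%), and at the p threshold alone 1450 probe sets were higher (2.65%) and 828 lower (1.51%). At that threshold 117 were higher (0.214%) and 30 lower (0.0549%) without TNFα, and 24 higher (0.0439%) and 0 lower with it. Quantile normalising the arrays again shifted the split without TNFα to 20 called higher and 3 lower, and at the p threshold alone to 36 and 19 without and 34 and 6 with TNFα, while centring the arrays on their medians gave 57 and 24 without TNFα. The counts depended on how the spread was estimated. With the 6 arrays of a comparison alone 1 was called higher without and 3 with TNFα, with the 12 arrays of both kinds of cell 38 and 74, and with arrays weighted by their scatter 50 and 633. The main effect called 519 higher with those 12 arrays and 556 with the weights. They also depended on single arrays. Without untransfected replicates 1, 2 and 3 the 50 became 28, 13 and 80, and without empty vector replicates 1, 2 and 3 it became 23, 17 and 20. In the TNFα stratum the 18 became 86, 5 and 6 without empty vector + TNFα replicates 1, 2 and 3, and 5, 10 and 7 without untransfected + TNFα replicates 1, 2 and 3. For the main effect the 372 became 242 and 139 without empty vector + TNFα replicates 2 and 3, 210 and 229 without untransfected replicates 1 and 2, and 209 without untransfected + TNFα replicate 3.

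The effect of the empty vector was mostly alike in direction in both strata. Across all 54675 probe sets the changes with and without TNFα correlated at r = 0.65 with a slope of 0.65, and 68.3% had the same sign, probe sets of one array not being independent of each other. Without untransfected replicate 2 and untransfected + TNFα replicate 3, which deviate together, r was 0.55, an alternative chosen after the data were seen. All 51 probe sets called without TNFα changed the same way with it, 45 of them at an unadjusted p under 0.05, and all 18 called with TNFα changed the same way without it, 14 of them at that level. No probe set passed the test of the difference between the strata by limma, and 0 were called by a plain linear model. By limma 691 and 630 had an unadjusted p under 0.05 for a larger and a smaller change with TNFα. Together these are fewer than the share of 0.05 expected where nothing differs. With 3 arrays per group and probe sets that are not independent, this does not show that the effects are equal. In both strata at once, 1936 probe sets (3.54%) had every empty vector array above every untransfected array, and 1058 (1.94%) had every one below.

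**Figure D1:**
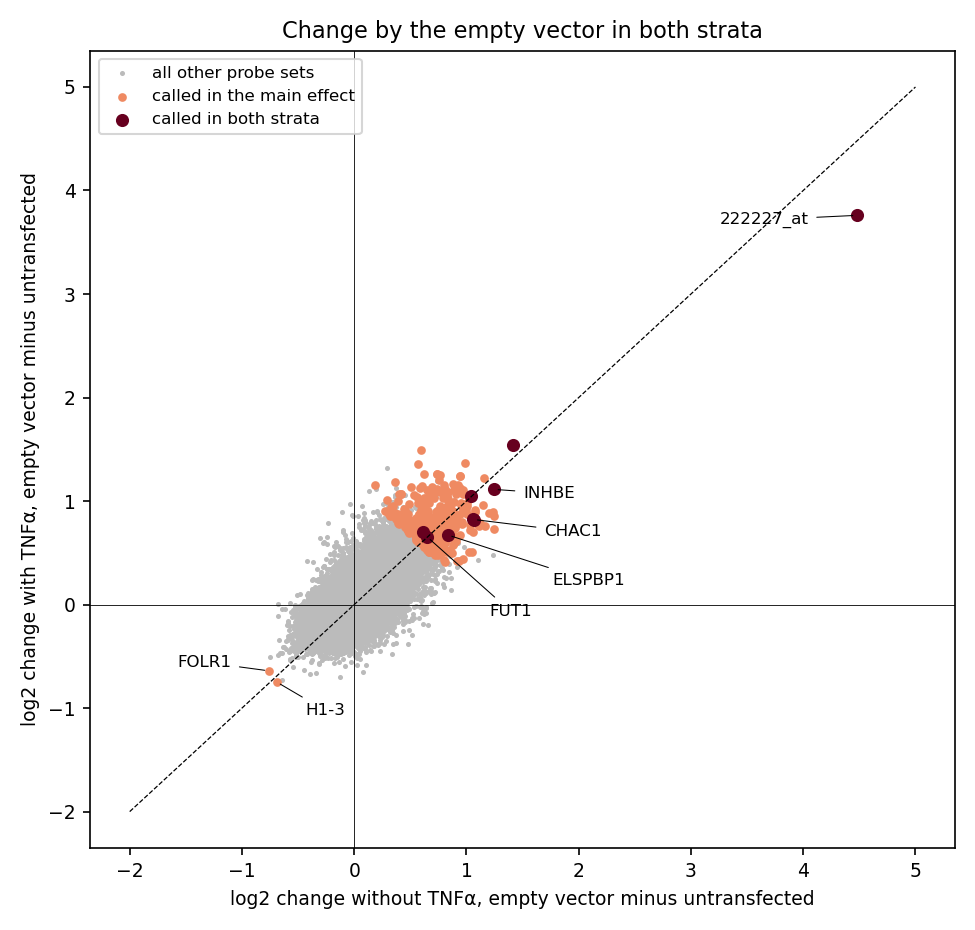
Change of each of the 54675 probe sets, empty vector minus untransfected, without TNFα (horizontal, log2) and with TNFα (vertical, log2), with the line of equality dashed. The 9 probe sets called in both strata lie close to the line, 222227_at far above the others at 4.48 and 3.76, and the 2 called lower in the main effect, H1-3 and FOLR1, lie at the lower left.

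The strata shared 9 called probe sets, all higher in empty vector cells. Of these, 5 stand for a single gene: INHBE, CHAC1, FUT1, ELSPBP1 and AGBL3. INHBE encodes the βE subunit of the inhibin and activin family and is a known target of ATF4, and CHAC1 encodes an enzyme that degrades glutathione and is among the most ATF4-dependent genes. FUT1 encodes the fucosyltransferase that makes the H antigen, ELSPBP1 a sperm-binding protein of the epididymis, and AGBL3 a carboxypeptidase that trims tubulin. The remaining 4 have no gene name in the annotation used here.

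INHBE read 6.07, 6.39 and 6.14 in empty vector cells against 4.81, 4.92 and 5.13 in untransfected cells, and with TNFα 5.99, 5.76 and 6.11 in empty vector cells against 4.79, 5.21 and 4.52 in untransfected cells. The groups did not overlap in either stratum. Its change was 1.25 ± 0.13 (SE, adjusted p = 0.000205) without and 1.11 ± 0.13 (adjusted p = 0.000911) with TNFα, a main effect of 2.26-fold, and both calls held with each array left out in turn.

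CHAC1 read 6.76, 7.24 and 7.16 in empty vector cells against 6.13, 5.66 and 6.19 in untransfected cells, and with TNFα 6.51, 6.60 and 6.44 in empty vector cells against 5.65, 5.85 and 5.58 in untransfected cells. No array of one group entered the range of the other. The changes were 1.06 ± 0.13 (adjusted p = 0.000756) and 0.82 ± 0.13 (adjusted p = 0.0218), or 1.92-fold over both. The call with TNFα was lost without untransfected + TNFα replicate 1 or 3 and without empty vector + TNFα replicate 2 or 3 (largest adjusted p = 0.112), whereas the main effect passed with each array left out.

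FUT1 read 10.26, 10.13 and 10.31 in empty vector cells against 9.55, 9.51 and 9.69 in untransfected cells, and with TNFα 10.27, 10.13 and 10.39 in empty vector cells against 9.51, 9.67 and 9.65 in untransfected cells. Its change of 0.65 ± 0.09 was the same to 2 decimals in each stratum (adjusted p = 0.00474 and 0.00844), and the call with TNFα was lost without untransfected + TNFα replicate 1 or empty vector + TNFα replicate 3 (largest adjusted p = 0.0925). ELSPBP1 changed by 0.83 ± 0.11 without and 0.67 ± 0.11 with TNFα, a main effect of 1.69-fold (adjusted p = 7.61e-05). AGBL3, whose probe set carries the suffix that marks probes shared with other sequences, changed by 0.62 and 0.70 (main effect adjusted p = 0.000699). In the single strata ELSPBP1 lost its call with TNFα when any 1 of 4 arrays was left out, and AGBL3 in each stratum when any 1 of 5 was.

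**Figure D2:**
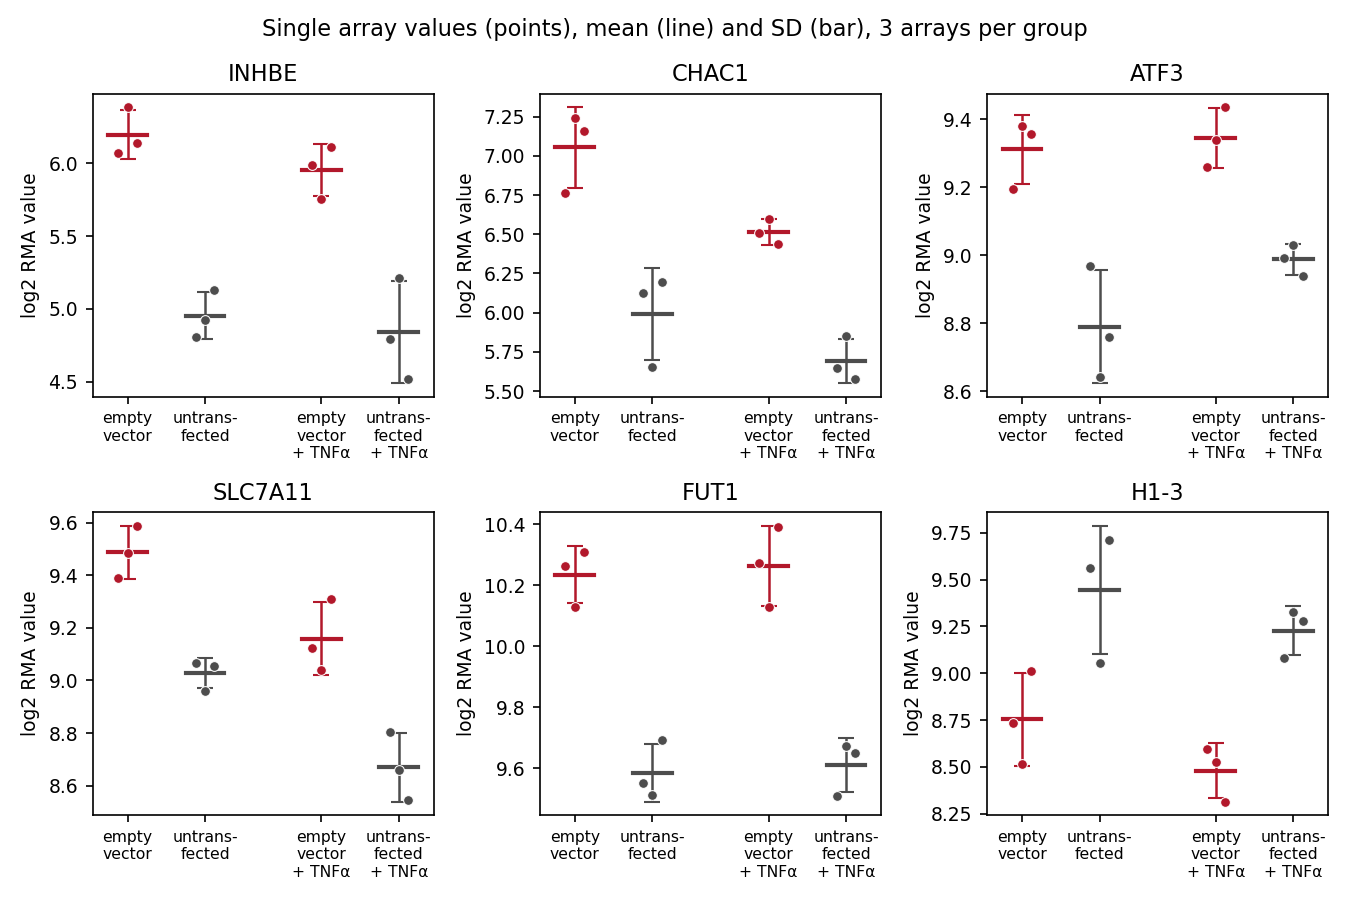
Log2 RMA values of 6 genes on each of the 12 arrays (points), with the mean of 3 arrays (line) and the SD (bar). Empty vector arrays lie above untransfected arrays in both strata for INHBE, CHAC1, ATF3, SLC7A11 and FUT1, and below them for the linker histone gene H1-3, with no overlap in any panel.

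The widest separation on the arrays belonged to a probe set without a gene name, 222227_at. It read 7.77, 7.53 and 6.98 in empty vector cells against 2.99, 3.0 and 2.85 in untransfected cells, and with TNFα 7.94, 7.92 and 7.82 in empty vector cells against 4.27, 4.01 and 4.13 in untransfected cells. The main effect was 17.4-fold (log2 4.12 ± 0.09, adjusted p = 4.24e-16), a size that rests on untransfected values near the low end of a scale without a true zero, as does the difference between the strata. TNFα raised it in untransfected cells by 1.19 (adjusted p = 1.25e-05), while in empty vector cells the change of 0.47 did not pass (adjusted p = 0.0897), and the difference of -0.72 between these responses did not pass among all probe sets. Cells transfected with SIRT6 or H133W plasmids, which carry the same backbone, read between 7.93 and 8.63 on all 12 of their arrays. The other unnamed probe sets called in both strata, 231598_x_at, 231597_x_at and 243489_at, had main effects of 2.78-, 2.06- and 1.92-fold. Like that of AGBL3, 231598_x_at and 231597_x_at carry the suffix that marks probes shared with other sequences.

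**Figure D3:**
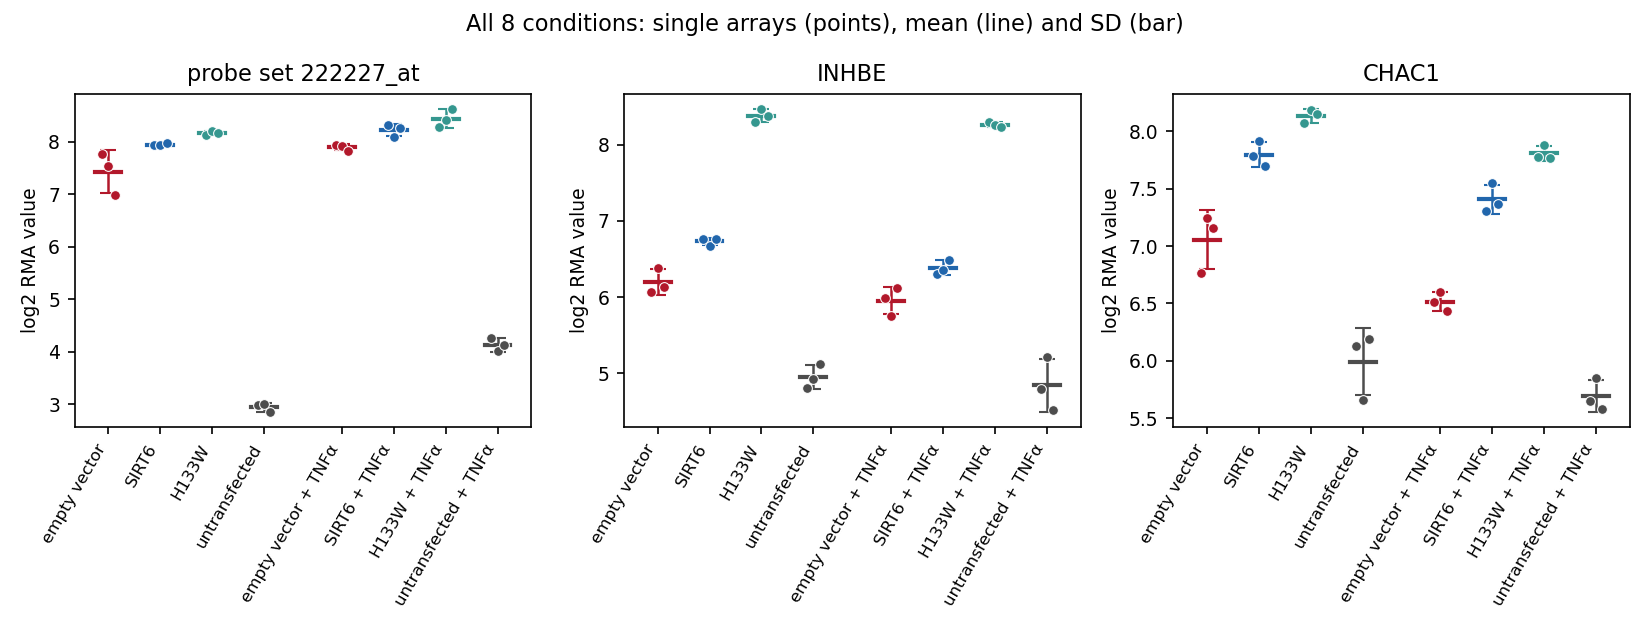
Log2 RMA values of 222227_at, INHBE and CHAC1 on all 24 arrays (points), with the mean of 3 arrays (line) and the SD (bar), in empty vector, SIRT6, H133W and untransfected cells without and with TNFα. The probe set 222227_at stood between 6.98 and 8.63 in every transfected group and between 2.85 and 4.27 in untransfected cells, while INHBE and CHAC1 read higher with either insert than with the empty vector.

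Of the 38 gene lists examined, that of the ATF4 programme had the largest share of members that passed. Of 39 measured genes of ATF4 and amino acid stress, 15 passed higher in the main effect and 0 lower, each gene being read on its brightest probe set (the one of highest mean), and 2 of the 15, INHBE and CHAC1, were called. Over all 19775 measured genes 1.65% passed higher and 1.3% lower by the same rule. The median main effect of the list was 0.11, against -0.01 over all genes, and all 39 members had a value above 0, against 9152 of 19775 genes, a count of members that was also 39 after centring or quantile normalising the arrays. In 14 of the 15 every empty vector array exceeded every untransfected array in both strata, against 3.54% of all probe sets. The choice of genes that passed on these arrays makes this likely. Of the 15, 10 passed with each of the 12 arrays left out and 5 did not (SLC3A2, SLC1A4, ALDH1L2, PPP1R15A and SLC7A5). Without both replicate 2 arrays of low weight 7 passed, and likewise 7 without untransfected replicate 2 and untransfected + TNFα replicate 3.

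Among transcription factors of the programme, ATF3, which is induced by ATF4, read 9.19, 9.38 and 9.36 in empty vector cells against 8.97, 8.64 and 8.76 in untransfected cells, and with TNFα 9.26, 9.34 and 9.44 in empty vector cells against 8.99, 9.03 and 8.94 in untransfected cells. All empty vector arrays were higher within each stratum, and the main effect was 0.44 ± 0.06 (adjusted p = 0.000658). DDIT3, which encodes the pro-apoptotic factor CHOP, changed by 0.54 without and 0.24 with TNFα (main effect 0.39, adjusted p = 0.0149). NUPR1, a small stress-induced chromatin protein, changed by 0.41 and 0.22 (main effect 0.31, adjusted p = 0.0113), and the pseudokinase TRIB3, which feeds back on ATF4, by 0.48 and 0.31 (main effect 0.39, adjusted p = 0.00486). ATF4 itself, which is regulated mainly at translation, differed by 0.03 (adjusted p = 0.721) and did not pass.

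SLC7A11, the cystine importer, read 9.39, 9.48 and 9.59 in empty vector cells against 9.07, 8.96 and 9.05 in untransfected cells, and with TNFα 9.12, 9.04 and 9.31 in empty vector cells against 8.81, 8.66 and 8.54 in untransfected cells. With no overlap in either stratum its main effect was 0.47 ± 0.07, or 1.39-fold (adjusted p = 0.00214). SLC3A2, the heavy chain that carries SLC7A11 and other transporters to the membrane, read 9.43, 10.06 and 9.58 in empty vector cells against 9.14, 8.98 and 9.18 in untransfected cells and changed by 0.49 in the main effect (adjusted p = 0.0374), which did not pass when any 1 of 10 of the 12 arrays was left out. CTH, which makes cysteine from cystathionine, on its brighter probe set read 8.55, 8.59 and 8.40 in empty vector cells against 8.04, 8.10 and 7.97 in untransfected cells, and with TNFα 8.42, 8.16 and 8.24 in empty vector cells against 7.86, 7.80 and 7.87 in untransfected cells. Both its probe sets passed, with main effects of 0.45 and 0.49 (adjusted p = 0.000658 and 0.00497).

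Other members that passed were transporters, secreted proteins and enzymes. STC2, a secreted glycoprotein, rose on both its probe sets by 0.48 and 0.44 in the main effect (adjusted p = 0.00337 and 0.00726). SLC1A4, a carrier of neutral amino acids, passed on 3 of its 5 probe sets, with main effects from 0.32 to 0.36. VLDLR, a lipoprotein receptor, rose by 0.29 (adjusted p = 0.0142), PPP1R15A, the phosphatase subunit that restores eIF2α, by 0.21 (adjusted p = 0.0342), and SLC7A5, the large neutral amino acid transporter, by 0.17 (adjusted p = 0.0297). GDF15, a stress cytokine that is on the same list, passed lower on 1 of its 3 probe sets, at -0.30 (adjusted p = 0.02), a value that did not pass without untransfected + TNFα replicate 3 or empty vector + TNFα replicate 2; its other probe sets differed by -0.06 and 0.03 and did not pass. The asparagine synthetase gene ASNS, a standard readout of amino acid shortage, differed by 0.11 (adjusted p = 0.0908) and did not pass.

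ATF4 binds with C/EBP partners at a composite element, here searched as TGATGNAA on both strands from 250 bases before to 50 bases after each transcription start in RefSeq (GRCh38.p14). It was present in 3.62% of 35116 promoters and in at least 1 promoter of 4.46% of 27305 genes, and of the 33 list genes with an entry 13 held it (39.4%). The share was 4 of 12 among list genes with a probe set that passed higher (ATF3, CHAC1, SLC1A4 and SLC3A2) and 9 of 21 among the others. Stretches around it are shown for CHAC1 and ATF3, which passed, for FUT1, which is not on the list but was called in both strata, and for ASNS, a list member that did not pass, with the matched bases in capitals.
CHAC1, chr15:40953232-40953299, plus strand: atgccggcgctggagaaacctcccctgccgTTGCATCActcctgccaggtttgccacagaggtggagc
ATF3, chr1:212565186-212565253, plus strand: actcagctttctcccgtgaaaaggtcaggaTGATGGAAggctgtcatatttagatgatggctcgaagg
FUT1, chr19:48755440-48755507, minus strand: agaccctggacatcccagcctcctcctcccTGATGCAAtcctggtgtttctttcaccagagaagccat
ASNS, chr7:97872439-97872506, minus strand: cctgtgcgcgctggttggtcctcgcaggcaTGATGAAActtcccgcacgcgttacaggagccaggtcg
The matches lie 209 to 202 bases upstream of the start in CHAC1, 191 to 184 in ATF3, 119 to 112 in FUT1 and 68 to 61 in ASNS. In CHAC1 the element lies on the opposite strand and is read here as its reverse complement. These matches describe the sequence and are not mapped binding sites. The element was not counted over the called genes outside the list. INHBE and SLC7A11 had no promoter entry and were not searched.

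Cells that received an insert had larger median changes of these genes. Over the 15 list members that passed, the median change from untransfected cells was 0.48 without and 0.35 with TNFα in empty vector cells, 0.75 and 0.68 in SIRT6 cells, and 1.0 and 1.09 in H133W cells. These comparisons share the untransfected arrays, and the 15 were chosen for empty vector values above those arrays, which can enlarge all of these medians. Over all 39 measured list genes the medians without TNFα were smaller. They were 0.16 in empty vector cells, 0.29 in SIRT6 cells and 0.33 in H133W cells. For INHBE the changes from untransfected cells without and with TNFα were 1.25 and 1.11 with the empty vector, 1.78 and 1.54 with SIRT6 and 3.43 and 3.42 with H133W, and for FUT1 0.65 and 0.65, 1.17 and 1.07, and 1.56 and 1.41.

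Neighbouring stress pathways had smaller shares of genes that passed than the ATF4 list. Over all genes 1.65% passed higher and 1.3% lower. Of 22 measured ER chaperone and unfolded protein response genes 1 (4.55%) passed higher and 0 lower on the brightest probe set (median main effect 0.05). On at least 1 probe set 3 passed higher and 1 lower. A value above 0 was found in 20 of the 22 (17 after centring the arrays). The gene that passed on the brightest probe set was ERN1, the IRE1 sensor, at 0.23 (adjusted p = 0.0385). It did not pass when any 1 of 9 arrays was left out. None of 23 heat shock genes passed on the brightest probe set (median -0.05), and 4 of the 23 had a main effect above 0. HSPA4, a chaperone of the HSP110 kind, passed lower on 1 of its 4 probe sets, at -0.40 (adjusted p = 0.0128), which held with each array left out. Of 22 NRF2 oxidative stress genes 2 (9.09%) passed higher, SLC7A11 and MAFF (median 0.00). MAFF changed by 0.40 (adjusted p = 0.04) but did not pass when any 1 of 9 arrays was left out. Among 20 p53 targets 1 (5%) passed, DDB2, a DNA damage recognition factor, at 0.18 (adjusted p = 0.0498, not when any 1 of 10 arrays was left out). None of 22 cholesterol genes, 24 DNA double-strand break repair genes, 31 replication genes or 29 mitotic genes passed on the brightest probe set. Lists this short may hold no passing gene at the 1.65% of all genes. On other probe sets 1 cholesterol gene passed higher, and 3 mitotic genes passed higher, 1 of them called, and 1 lower.

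**Figure D4:**
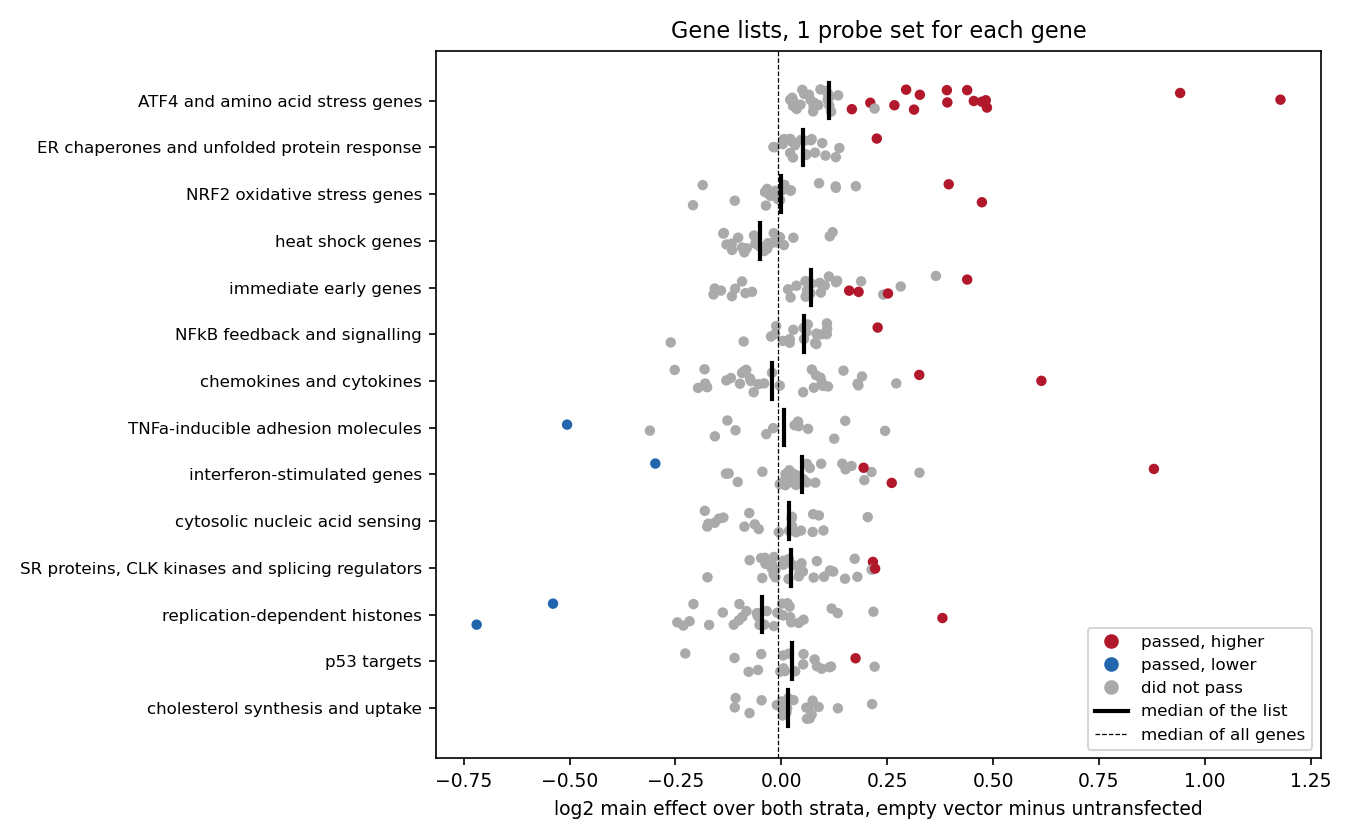
Main effect (log2, empty vector minus untransfected, mean of both strata) of every measured gene of 14 lists, 1 probe set for each gene, with points red where the gene passed higher, blue where it passed lower and grey where it did not pass. The median of the ATF4 list, 0.11, is the farthest to the right of the 14, and the dashed line at -0.01 is the median of all genes.

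Interferon and DNA-sensing genes, the textbook answer to cytosolic DNA, had small median changes as lists. Of 31 measured interferon-stimulated genes 3 passed higher (9.68%) and 1 lower (3.23%), against 1.65% and 1.3% of all genes (median main effect 0.05). Above 0 were 25 of the 31, against 9152 of 19775 genes, and after quantile normalising the arrays 19, against 8660. None of 23 nucleic acid sensing genes or of 14 interferons and receptors passed on the brightest probe set, though 1 sensing gene passed higher on another. The median level was 3.23 for the interferons and receptors, toward the low end of the scale. It was 6.86 for the sensing genes and 6.82 over all genes. IFIT2, an interferon-induced inhibitor of translation, was the exception in size. It read 6.08, 5.56 and 5.57 in empty vector cells against 4.96, 4.64 and 5.05 in untransfected cells, and with TNFα 5.97, 5.87 and 5.96 in empty vector cells against 5.28, 5.17 and 4.62 in untransfected cells, without overlap. Its main effect of 0.88 ± 0.16 (adjusted p = 0.00726) held with each array left out, although neither stratum passed alone, and its other probe set differed by -0.01 (adjusted p = 0.985). The transcription factor IRF9 rose by 0.26 (adjusted p = 0.044) and the ubiquitin-like ISG15 by 0.19 (adjusted p = 0.0404), and the antiviral GTPase MX2 passed lower at -0.30 (adjusted p = 0.025); IRF9 did not pass when any 1 of 8 arrays was left out, ISG15 when any 1 of 7 was and MX2 when any 1 of 5 was. IFIT1 and IFIT3, which act with IFIT2, differed by 0.17 and 0.21 and did not pass.

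Inflammatory genes showed small and mixed differences at either level of TNFα. Of 33 chemokine and cytokine genes 2 passed higher and 0 lower on the brightest probe set (median -0.02), and 1 passed lower on another. CXCL8, a neutrophil attractant, read 4.93, 5.07 and 4.95 in empty vector cells against 4.83, 4.34 and 4.43 in untransfected cells, and with TNFα 8.31, 8.26 and 8.28 in empty vector cells against 8.03, 8.09 and 8.14 in untransfected cells. The empty vector arrays lay higher in each stratum, and the main effect of 0.33 (adjusted p = 0.0264) did not pass when any 1 of 5 arrays was left out; IL1A, an alarm cytokine, rose by 0.61 (adjusted p = 0.0336) but not when any 1 of 9 was left out. The monocyte attractant CCL2 averaged 5.42 ± 0.14 in empty vector cells and 4.81 ± 0.13 in untransfected cells (SD, n = 3), and with TNFα 9.42 ± 0.06 in empty vector cells and 9.49 ± 0.08 in untransfected cells. Its changes of 0.61 and -0.07 did not pass (adjusted p = 0.118 and 0.951). CXCL10, a lymphocyte attractant, differed by 0.09 ± 0.12 (SE) in the main effect, and TLR7, an endosomal RNA sensor, by 0.09 ± 0.12 and -0.14 ± 0.09 on its 2 probe sets. Neither gene passed, nor did SIRT6, at -0.06 ± 0.07 and -0.10 ± 0.21 on its 2 probe sets. ICAM1, a leukocyte adhesion molecule, passed lower at -0.51 (adjusted p = 0.0195), although not without empty vector + TNFα replicate 3, and its other 2 probe sets differed by -0.13 and -0.21 and did not pass. Of 30 immediate early genes 5 passed higher and 3 lower on at least 1 probe set. On the brightest probe set 4 passed higher and 0 lower (median 0.07). They were ATF3, FOSL2, a partner of JUN, at 0.25 (adjusted p = 0.0142), the differentiation factor KLF4 at 0.18 (adjusted p = 0.0447) and the MAP kinase phosphatase DUSP1 at 0.16 (adjusted p = 0.0255), of which KLF4 did not pass when any 1 of 10 arrays was left out and DUSP1 when any 1 of 4 was.

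Few named genes were called lower. The 2 called lower in the main effect were H1-3, a linker histone of the replication-dependent cluster, and FOLR1, a folate receptor. H1-3 read 8.73, 8.52 and 9.01 in empty vector cells against 9.56, 9.06 and 9.71 in untransfected cells, and with TNFα 8.60, 8.53 and 8.32 in empty vector cells against 9.08, 9.33 and 9.28 in untransfected cells. The groups did not overlap, and the main effect of -0.72 ± 0.11 (adjusted p = 0.00265) held with each array left out. The linker histone gene H1-4 was also lower, at -0.54 ± 0.08 (adjusted p = 0.00214), with no overlap in either stratum. FOLR1 was lower on 1 of its 2 probe sets, at -0.70 (adjusted p = 0.0226), and not called when any 1 of 4 arrays was left out, while the other probe set differed by 0.20 and did not pass. Among 34 measured replication-dependent histone genes these 2 linker histones passed lower and 1 core histone gene, H2AC6, passed higher at 0.38 ± 0.06 (adjusted p = 0.00435), with a list median of -0.05. ZFR, an RNA-binding zinc finger protein, passed lower on 2 of its 4 probe sets, at -0.56 and -0.57 (adjusted p = 0.0118 and 0.0155). Of 22 measured apoptosis regulators 1 passed lower and 0 higher on the brightest probe set. On at least 1 probe set 4 passed lower and 0 higher, against 625 of 19775 genes lower, the number of probe sets of a gene not being allowed for.

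On the brightest probe set 2 of 32 genes for SR proteins, CLK kinases and related factors passed higher and 0 lower (median 0.02), namely the kinase CLK1 and the cyclin CCNL2, at 0.22 each (adjusted p = 0.0149 and 0.0195), while 8 of the 32 passed higher on at least 1 probe set, against 651 of 19775 genes. These genes can have many probe sets, and their number was not allowed for. SRSF1, a core splicing activator, passed on 3 of its 8 probe sets with main effects from 0.40 to 0.64. SRSF4 read 8.21, 8.12 and 8.39 in empty vector cells against 7.42, 7.72 and 7.56 in untransfected cells on its called probe set (main effect 0.63, adjusted p = 0.0134), and -0.02 was the difference on its brightest. RBM6 and RBM5, neighbouring genes for RNA-binding proteins, were called at 0.95 and 0.83 (adjusted p = 0.0166 and 0.0155) on 1 of 3 and 1 of 4 probe sets, with differences of 0.08 and 0.21 that did not pass on the brightest. Without empty vector + TNFα replicate 3 neither RBM6 nor SRSF4 was called, nor was the called probe set of SRSF1.

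Probe sets of 1 gene differed in this way for most named genes called higher in the main effect. Of the 372 probe sets, 262 (70.4%) had no gene name, against 21.5% of all probe sets on the array, and 103 stood for 102 single genes. For 74 of these genes another probe set was the brightest and was not called, the median main effect of that probe set was 0.01, and in 6 of the 74 it passed. Protein-coding genes made up 80.4% of the 102 and long noncoding RNAs 13.7%, against 83.5% and 13.4% of all measured genes. On the brightest probe set 28 genes were called higher (0.142% of genes) and 2 lower (0.0101%). After INHBE, the largest main effects on single-gene probe sets were those of GUSBP1, a pseudogene transcript, at 1.05, TTLL5, a tubulin-modifying enzyme, at 1.04 and RBM6 at 0.95. For TTLL5 and RBM6 the call was lost without empty vector + TNFα replicate 3.

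The 262 unnamed probe sets called higher averaged 5.26 to 5.32 on the empty vector arrays against 4.45 to 4.72 on the untransfected arrays, and with TNFα 5.47 to 5.98 on the empty vector arrays against 4.85 to 4.94 on the untransfected arrays. The median SD of these probe sets between replicates was 0.181 in empty vector cells, 0.215 in untransfected cells, and with TNFα 0.320 in empty vector cells and 0.183 in untransfected cells. Over all probe sets it was 0.126 in empty vector cells, 0.125 in untransfected cells, and with TNFα 0.0825 in empty vector cells and 0.106 in untransfected cells. SIRT6 arrays averaged 4.86 to 5.21 without and 5.25 to 5.39 with TNFα, and H133W arrays 5.15 to 5.89 and 5.43 to 5.95. The probe sets were chosen for being higher than on these untransfected arrays, so nothing is read from where the SIRT6 and H133W arrays stand against them.

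**Figure D5:**
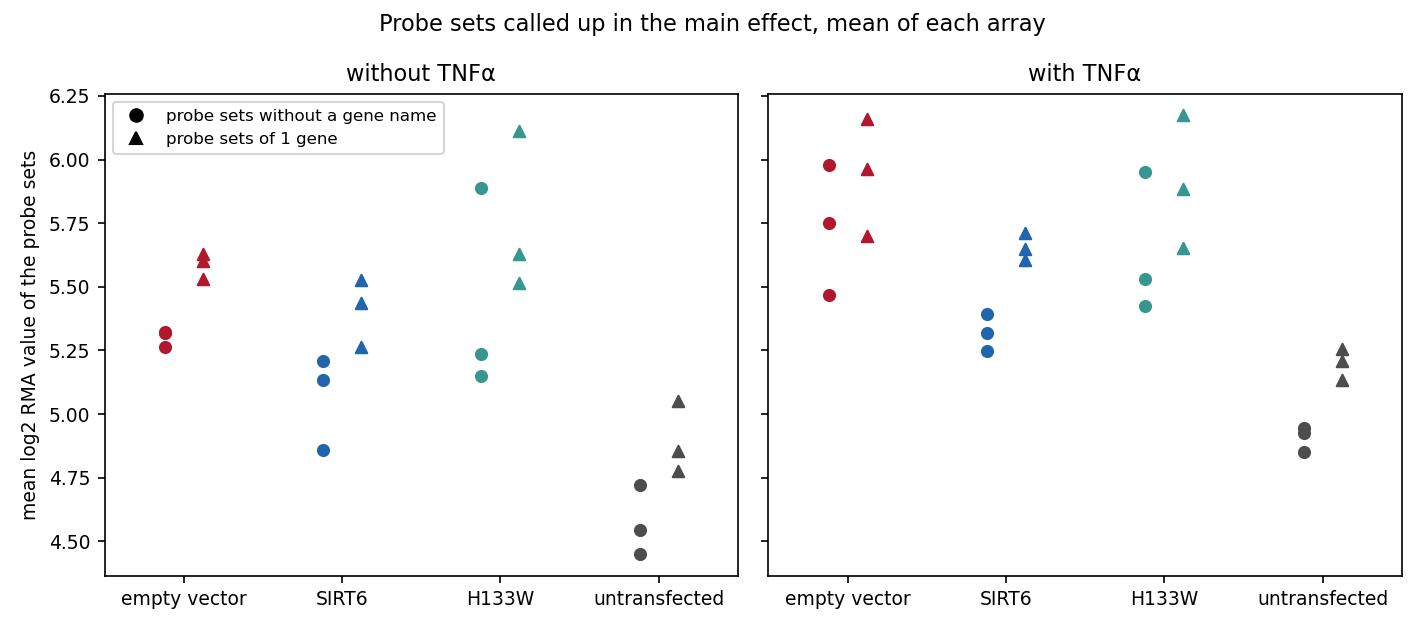
Mean log2 RMA value, on each array, of the probe sets called higher in the main effect, for the 262 without a gene name (circles) and the 103 of a single gene (triangles), in empty vector, SIRT6, H133W and untransfected cells. The 3 empty vector + TNFα arrays spread from 5.47 to 5.98 for the unnamed probe sets, wider than the 4.85 to 4.94 of untransfected + TNFα arrays.

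Some genes were called in 1 stratum and not in the other. PHF21B, a PHD finger protein, read 5.82, 6.02 and 6.05 in empty vector cells against 5.19, 4.97 and 5.32 in untransfected cells, and with TNFα 5.59, 5.40 and 5.51 in empty vector cells against 5.26, 5.27 and 5.17 in untransfected cells. The change of 0.80 ± 0.08 without TNFα (adjusted p = 0.000163) held with each array left out, that of 0.27 with TNFα did not pass (adjusted p = 0.196), and the difference between them did not pass among all probe sets. IFT25, a subunit of the ciliary transport complex, changed by 0.94 (adjusted p = 0.00688) and 0.42 (adjusted p = 0.229), and its call without TNFα was lost without replicate 2 of either group. Over both strata AJUBA, a LIM protein that restrains Hippo signalling, passed on 3 of its 4 probe sets with main effects from 0.42 to 0.50, and PMEPA1, a feedback inhibitor of TGFβ signalling, on 2 of 3 with 0.35 and 0.36.

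HEK293 markers were read on all arrays, with log2 values of the 7 genes summing to 66.1 to 66.5 in empty vector cells and 65.7 to 66.2 in untransfected cells, and with TNFα to 65.3 to 65.9 in empty vector cells and 65.3 to 65.7 in untransfected cells. None of them passed. The summed values of 10 blood cell markers were 38.3 to 38.7 in empty vector cells against 39.2 to 41.3 in untransfected cells, and with TNFα 37.3 to 38.1 in empty vector cells against 38.7 to 39.5 in untransfected cells, so this sum moved with the comparison although none of the 10 passed. Sums of 8 endothelial markers were 33.6 to 34.6 in empty vector cells against 34.6 to 36.1 in untransfected cells, and with TNFα 33.7 to 34.2 in empty vector cells against 34.6 to 36.0 in untransfected cells, and PECAM1, an endothelial adhesion molecule, passed lower at -0.44 (adjusted p = 0.0296) on 1 of its 5 probe sets and not when any 1 of 7 arrays was left out. For 12 fibroblast and 8 epithelial markers the ranges of the groups overlapped. On the brightest probe set 1 of them, the epithelial splicing factor ESRP1, passed higher at 0.47 (adjusted p = 0.0432) but not when any 1 of 7 arrays was left out. The fibroblast marker DCN passed higher at 0.39 on another probe set, but not when any 1 of 9 arrays was left out. The T cell gene CD3E, with a mean of 2.06, and the endothelial receptor KDR, with a mean of 2.49, lay at the low end of the scale. Leaving out the dimmer probe sets, those under the median level, left 179 called higher in the main effect and 11 with TNFα.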

How the data were processed

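The deposited values were made by the authors with RMA, which corrects, normalises and summarises the probes, and are log2 values of 54675 probe sets in 8 conditions; nothing was rescaled here. Probe sets were named from the platform annotation, updated through Entrez ID: 11777 had no name, 1801 several genes and 41097 a single gene. All 24 arrays entered a limma 3.58.1 fit (R 4.3.3) with 1 coefficient per condition, 16 residual and 3.47 prior degrees of freedom, with Benjamini-Hochberg adjustment over all probe sets, tested on simulated data. The thresholds are those of the study's methods. Gene lists were described by counts and medians on the brightest probe set of a gene, with no test of a list. Named genes are the largest called changes, those called in both strata, members of 38 lists that passed or changed most, and SIRT6, CCL2, CXCL10 and TLR7; further members were named after their values were seen. Members and lists were chosen with earlier results of these data known. Precision is limited by 3 arrays per condition. Alternatives were other models, scalings, filters and arrays left out.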

Additional observations from a re-analysis of the deposited data

How the results depend on the processing

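Over 3001 combinations of an alternative with 138 named probe sets that passed in the main effect, 747 no longer passed, and 42 probe sets passed under every alternative. None changed sign, which the choice of probe sets that passed makes likely. Called higher and lower, in that order, were 50 and 1 without TNFα, 18 and 0 with TNFα and 372 and 2 in the main effect. A plain linear model called 26, 7 and 245 higher in the 3 comparisons. With the 12 arrays alone 74 were higher with TNFα and 0 lower without it, and with the 6 arrays of a comparison alone 1 was higher without TNFα, 0 lower, and 3 higher with it. Array weights gave 7 lower without TNFα, 633 higher and 19 lower with it and 6 lower in the main effect. Leaving out dim probe sets gave 11 higher with TNFα and 179 in the main effect. Centring gave 32 higher and 3 lower without TNFα, and quantile normalisation 20 and 3, with 1 lower with TNFα and 4 in the main effect. With no fold threshold 117 were higher and 30 lower without TNFα (36 and 19 after quantile normalisation), and 1450 and 828 in the main effect. Among named probe sets 32, 9 and 110 were higher and 0 lower without TNFα. Without both replicate 2 arrays of low weight 8 were higher and 0 lower without TNFα, 1 was lower with it, 177 were higher in the main effect, and 7 ATF4 list members passed. Without the 2 untransfected arrays that deviate together, an alternative chosen after seeing the data, 12 were higher and 4 lower without TNFα, 7 higher with it, 127 higher and 4 lower in the main effect, and 7 ATF4 list members passed. The cause of these shifts was not tested. Leaving out each array in turn gave 13 to 80 higher and 0 to 16 lower without TNFα, 5 to 86 and 0 to 3 with TNFα, 139 to 531 and 1 to 7 in the main effect, 0 for the difference between strata, 10 to 16 ATF4 list members passing and a median of 0.10 to 0.16 for that list. Replicate numbers are shared by all groups but did not pair the arrays, whose same-numbered deviations correlated between -0.29 and 0.28, and with the number as a block 53 and 1, 17 and 0, and 347 and 2 were called.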

Other observations

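Zinc finger genes, a large family of mostly DNA-binding repressors, had more members above 0 than below it with the empty vector. Of 502 measured genes whose symbol begins with ZNF, 17 passed higher (3.39%) and 3 lower (0.598%) in the main effect on the brightest probe set. Over all genes 1.65% passed higher and 1.3% lower. The median was 0.05 against -0.01 over all genes. Above 0 were 340 of the 502 (308 after centring and 308 after quantile normalising the arrays). Over all 19775 genes 9152 were above 0 (7614 after centring and 8660 after quantile normalising). ZNF418 and ZNF594 passed higher, at 0.50 (adjusted p = 0.0189) and 0.41 (adjusted p = 0.00378). TGFβ and SMAD target genes, of which 1 of 15 passed (PMEPA1), had a median main effect of 0.09, and 16 genes of MHC class I antigen processing had a median of 0.07 with none passing on the brightest probe set.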
